A study of Homo sapiens with 8 samples.

Results

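EZH2 binding sites that were found in only 1 of 4 ChIP-seq libraries, run 2 of the NTKO myeloma line, are described here. In ChIP-seq, chromatin carrying a protein is recovered with an antibody and sequenced, and a peak is a stretch where reads exceed those of an input library made without antibody. The NTKO and TKO lines both derive from KMS11, a myeloma cell line carrying the t(4;14) translocation, which places MMSET under immunoglobulin enhancers. NTKO cells keep only the rearranged IGH-MMSET allele, with the wild-type allele inactivated, and have high levels of MMSET. In TKO cells it is the rearranged allele that was inactivated, and MMSET is low. Both lines were grown in the same medium, used at passage 15-20 and precipitated with the same EZH2 antibody. Each line gave 2 libraries, run 1 and run 2, that the study describes as biological replicates with a high correlation. Its later analyses used the run 2 peaks. Overlapping or touching peaks of the 4 lists were merged into 11857 regions. Of these, 10388 held a peak of NTKO run 2, and 6840 held a peak of NTKO run 2 and of no other list. The last group is called the run 2-only regions below. Every one of them consisted of a single peak.

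EZH2 is the catalytic subunit of the Polycomb repressive complex PRC2, which methylates lysine 27 of histone H3. The trimethylated form of this residue, H3K27me3, is bound by the PRC2 subunit EED, and so the complex tends to occupy extended stretches of repressed chromatin, often around CpG-rich promoters of developmental genes. MMSET (NSD2) dimethylates lysine 36 of histone H3, a mark that hinders PRC2 on the same histone tail. A peak caller often breaks an extended stretch of weak binding into several short peaks, so both the width of a peak and its distance to the next one carry information on the shape of the bound stretch.

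The regions were chosen by the presence or absence of a peak, and heights, widths and scores come from the same calls. These measures are therefore given as descriptions, without tests, and intervals cover counting error only. A region without a peak in a library did not pass the caller's thresholds there, 2-fold over input and a −log10 p of 15, which does not show that EZH2 was absent. Such a region has no height in that library here. The 4 lists differed greatly in length. The run 2-only regions made up 65.8% of the NTKO run 2 regions. Private regions of the other lists were 126 of 2091 for NTKO run 1 (6.03%), 25 of 472 for TKO run 1 (5.30%) and 1253 of 4251 for TKO run 2 (29.5%). Both run 2 lists exceeded both run 1 lists in this share, NTKO exceeded TKO in run 2, and the intervals of the run 1 lists overlapped (5.08 to 7.13 and 3.61 to 7.70). The order of the shares was also the order of the lists by number of regions, so the shares cannot be told apart from list length. With 2 libraries per line, an exact permutation test allows no p below 0.33, the depth of the libraries is unknown, and line and library cannot be told apart for regions of a single list. Counting as many NTKO run 2 peaks as TKO run 2 has, the highest ones, left 2425 run 2-only regions (44.8%), and a −log10 p of at least 20 in all lists left 4041 (63.5%). The private share of TKO run 2 was not computed with equal numbers of peaks.

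The run 2-only regions were mostly low and narrow. Their height at the summit had a median of 57 reads, with a middle range of 50 to 67 and extremes of 23 and 171. Their width had a median of 277 bp, with a middle range of 160 to 445 bp and extremes of 99 and 5077 bp. Their −log10 p had a median of 19.6 and a maximum of 58.8. The 3548 NTKO run 2 regions that also had a peak in another list were higher and wider, with medians of 88 reads and 877 bp and a −log10 p of 32.2. Together the run 2-only regions covered 2553 kb.

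The share of NTKO run 2 regions that no other list contained was smaller in each higher class of height. It was 93.0% of the 1580 regions between 40 and 50 reads, 72.2% of the 3178 regions between 60 and 80, and 37.4% of the 1346 regions between 80 and 100. Of the 1486 regions of 100 reads or more, 126 (8.48%) were run 2-only, and of the 266 regions between 150 and 200 reads 1 was. Among the 96 regions of 200 reads or more there were 0, for which the Wilson interval reaches 3.85%. Width gave the same order, from 92.4% of the regions under 200 bp to 6.70% of those between 2000 and 5000 bp and 1 of 159 regions of 5000 bp or more.

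**Figure D1:**
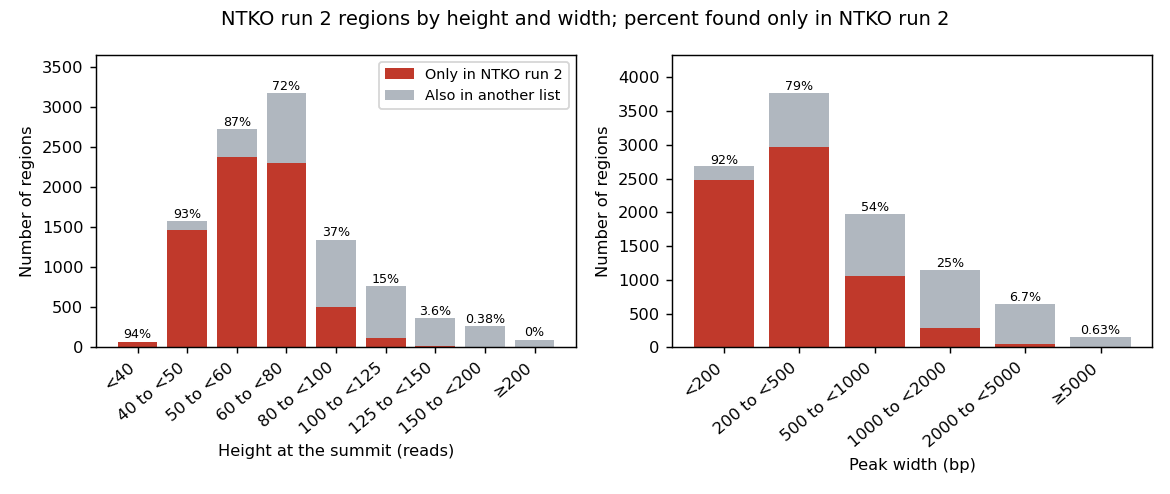
Number of NTKO run 2 regions (y axis) by height at the summit in reads (left) and peak width in bp (right). Red parts are regions found only in NTKO run 2 and gray parts regions also found in another list, with the red percent printed above each bar, which goes from 93.0% at 40 to 50 reads to 37.4% at 80 to 100 reads.

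Regions whose peak was 1000 bp or wider were called wide. Of the run 2-only regions 337 were wide (4.93%, Wilson 95% confidence interval 4.44 to 5.47), against 18.8% of all NTKO run 2 regions and 45.5% of those shared with another list. The 337 wide regions covered 502 kb of the 2553 kb. They were also the higher ones, with a median height of 78 reads (95% interval 76 to 80) against 57 reads (56 to 57) for the 6503 narrow regions, and a median −log10 p of 27.6 against 19.4. The heights overlapped widely, since wide regions began at 52 reads and narrow ones reached 147. The summit lay in the middle 50% of the peak in 62.3% of wide regions (57.0 to 67.3) and 69.9% of narrow regions (68.7 to 71.0), so the summits of wide peaks were somewhat more often toward an edge. The mean read level divided by the height, a measure of how flat a peak is, had a median of 0.611 in wide and 0.664 in narrow regions. The wide share depended on how the regions were defined: it was 14.8% with a −log10 p of at least 20 in all lists, 14.0% when peaks had to overlap by 50% of both to be shared, and 8.96% without TKO run 2.

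The widest region lay on hg18 chr16:751937-757014, with 97 reads at its summit and a width of 5077 bp. The nearest region of any kind lay 117 bp away, and the nearest region with a peak of another list, TKO run 2, was 5.50 kb away. The next widest were chr7:1741217-1745943 (4726 bp, 112 reads) and chr14:100088550-100092981 (4431 bp, 83 reads). The chromosome 14 region stood 104 bp from a region found in both NTKO runs and in TKO run 2, where heights were 37 and 88 reads in the NTKO runs and 48 reads in TKO run 2. All 3 of the widest regions were therefore neighbors of other EZH2 peaks. Genes are not given for these positions because no annotation of the hg18 build was used here.

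Width crossed with distance gave 4 classes. A region was called clustered when another merged region, of any list, lay within 10 kb, and isolated otherwise. Of the run 2-only regions 5837 were clustered (85.3%, 84.5 to 86.2), close to the 85.1% of all NTKO run 2 regions, and 1003 were isolated. Wide clustered regions numbered 328, wide isolated regions 9, narrow clustered regions 5509 and narrow isolated regions 994. Among wide regions 97.3% were clustered, against 84.7% of narrow regions (83.8 to 85.6). Put the other way, 5.62% of clustered regions (5.06 to 6.24) and 0.897% of isolated regions (0.473 to 1.70) were wide, a difference of 4.72 percentage points (3.36 to 5.77). With wide set at 2000 bp the difference was 0.637 points. The range between opposite limits of both intervals, -0.0152 to 0.973, included 0. Such a range is wider than a confidence interval of the difference, so including 0 does not show that a difference was absent. The 9 wide isolated regions had 73 to 109 reads. In the TKO run 2-only regions the wide shares lay closer together, 3.46% of clustered and 2.70% of isolated regions. NTKO run 1 and TKO run 1 had 1 wide private region each, both isolated. When peaks within 1 kb were merged first, 3055 run 2-only regions remained and 62.6% of them were clustered.

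**Figure D2:**
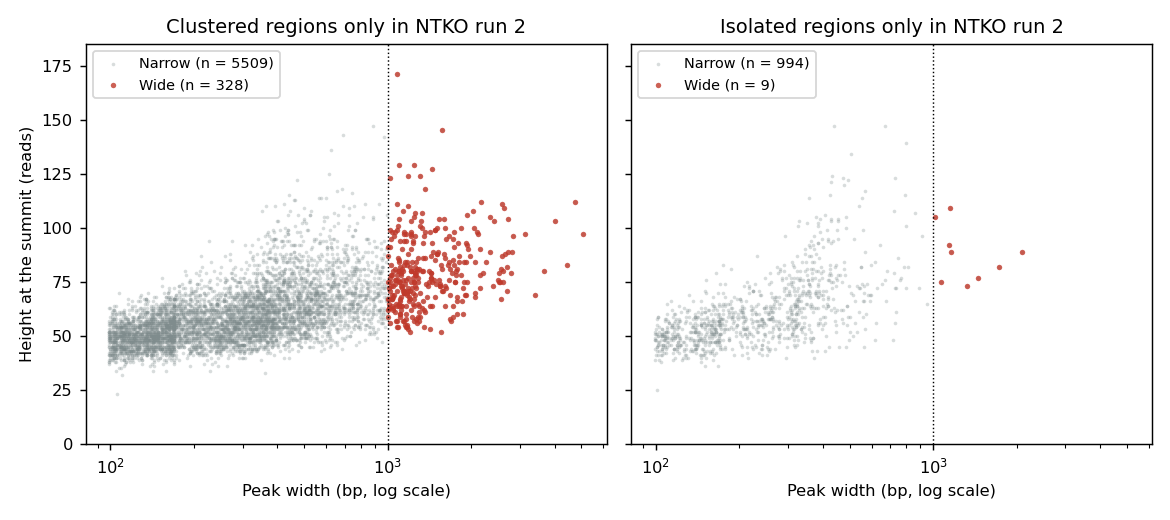
Height at the summit in reads (y axis) against peak width in bp on a log axis (x axis) for each run 2-only region, with clustered regions on the left and isolated ones on the right. Red points are the wide regions, 328 clustered and 9 isolated, and the dotted line marks 1000 bp.

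Isolated and clustered regions had the same median height, 57 reads, but not the same shape. Isolated regions were narrower, with a median width of 224 bp (95% interval 209 to 240) against 288 bp (280 to 295). Their mean level was lower, 34.9 reads (34.3 to 35.4) against 38.7 (38.5 to 38.9), so that the ratio of mean level to height was 0.597 (0.591 to 0.605) in isolated and 0.670 (0.668 to 0.672) in clustered regions. Isolated peaks were thus more pointed. Because this ratio can depend on width, it was also taken over regions of 200 to 400 bp only. There it was 0.580 (0.574 to 0.592) over 404 isolated regions and 0.675 (0.670 to 0.679) over 1912 clustered ones, and median height was 61 reads (60 to 63) against 57 reads (57 to 57). The TKO run 2-only regions of the same widths, which come from another library, had ratios of 0.588 (0.575 to 0.608) over 142 isolated and 0.626 (0.614 to 0.634) over 272 clustered regions, and heights of 63 and 60 reads. The private regions of NTKO run 1 had the opposite order, 0.668 over 5 isolated and 0.646 over 29 clustered regions, with overlapping intervals, and TKO run 1 had only 3 isolated and 2 clustered regions of these widths. The order of widths was not shared by all libraries either. Over regions of any width, median width was 230.5 bp in 444 isolated and 221 bp in 809 clustered TKO run 2-only regions. It was 140 bp and 165 bp in the private regions of NTKO run 1, and 161.5 bp and 139 bp in those of TKO run 1.

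Clustering came at short range. At the median the nearest region of any list was 510 bp away. A neighbor was present within 500 bp for 49.5% of regions and within 1 kb for 66.7%. Within a list the smallest gap between neighboring peaks was 100 bp. The regions that NTKO run 2 shared with other lists were packed more closely at first, with 75.9% having a neighbor within 1 kb, and both groups reached about the same share at 10 kb. At the other end, 1.71% of run 2-only regions had no other region within 1 Mb.

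**Figure D3:**
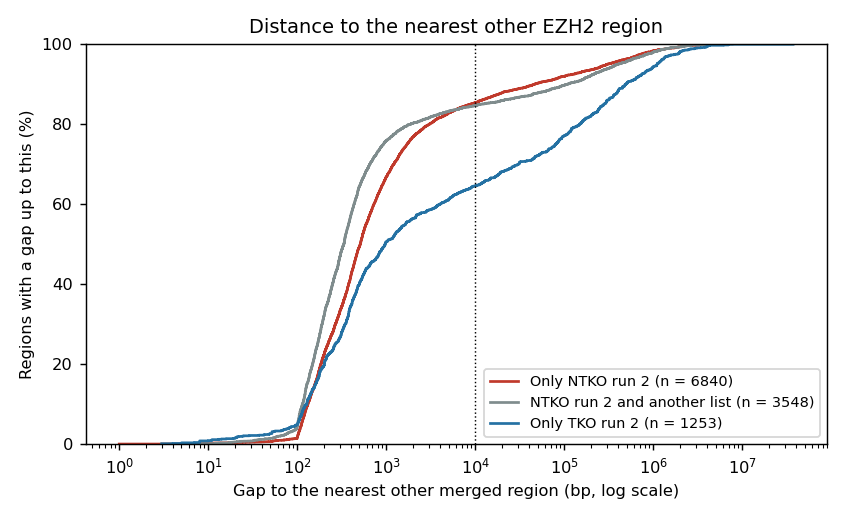
Percent of regions (y axis) whose nearest other merged region lies within the gap on the x axis, in bp on a log scale, for run 2-only regions (red), other NTKO run 2 regions (gray) and TKO run 2-only regions (blue). At the dotted line, 10 kb, the values are 85.3%, 84.6% and 64.6%.

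The neighbors of run 2-only regions were of different kinds. For 4068 regions (59.5%, 58.3 to 60.6) the neighbors within 10 kb included a region of another list, for 1769 (25.9%, 24.8 to 26.9) they were other run 2-only regions alone, and 1003 (14.7%) were isolated. The first share was lower than among the 3548 shared NTKO run 2 regions. Of those, 2685 (75.7%, 74.2 to 77.1) had a further region of another list within 10 kb. Of all NTKO run 2 regions, 59.3% had another region with a TKO peak within 10 kb. That count left out TKO peaks inside the region itself, so it understates how many lay at or near a TKO peak. Of the run 2-only regions, which hold no TKO peak, 53.8% (52.6 to 55.0) had a region with a TKO peak within 10 kb. For wide run 2-only regions the share was 63.2% (57.9 to 68.2) and for narrow ones 53.3% (52.1 to 54.5). Without TKO run 2, which supplies most TKO peaks, the share was 7.93%. The nearest region of another list, where it was within 10 kb, had been found in both run 2 lists alone in 42.6% of cases, in both NTKO runs and TKO run 2 in 27.7% and in both NTKO runs alone in 16.5%. The 3674 nearest neighbors that also held an NTKO run 2 peak reached 90 reads and 1159 bp in that library at the median, against 58 reads and 295 bp for the run 2-only regions beside them. The neighbor was the higher one in 90.4% of these pairs and the wider one in 88.8%. This order was not particular to neighbors. Medians over all run 2-only regions were 57 reads and 277 bp, against 88 reads and 877 bp over all shared NTKO run 2 regions. Several run 2-only regions can share a neighbor.

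Median height stayed between 56 and 59 reads at every distance to the nearest region of another list. The median was 57 reads for the 527 regions closer than 200 bp, 59 reads for the 572 regions from 500 bp to 1 kb, 57 reads for the 673 regions from 5 to 10 kb and 56 reads for the 287 regions at 1 Mb or more. Shape differed more at long range. The ratio of mean level to height had a median of 0.678 in the nearest class, 0.659 from 1 to 2 kb and 0.671 from 10 to 100 kb. It was 0.640 from 100 kb to 1 Mb and 0.601 at 1 Mb or more. The share of wide regions did not fall steadily. It was 8.89% between 200 and 500 bp, 4.90% from 500 bp to 1 kb, 7.94% from 1 to 2 kb, 3.28% from 2 to 5 kb and 1.05% at 1 Mb or more. Low peaks of the same height were therefore found both beside and far from the regions that other libraries contained.

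When regions of any list were chained wherever gaps were at most 10 kb, the run 2-only regions fell into 2062 runs. Of these, 715 runs also held regions of other lists and contained 4507 run 2-only regions (65.9%). In such mixed runs 55.1% of the run 2-only regions (53.6 to 56.5) had regions of other lists on both sides and the remaining 2025 had them on 1 side only. A side here means anywhere before or after the region in its run, not only the adjacent region. A further 344 runs consisted of 2 or more run 2-only regions and nothing else. They held 1330 regions (19.4%), with a median of 3 regions and a median span of 3.26 kb, and 81 of them had 5 or more regions.

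The run with the most regions among those made of run 2-only regions alone lay on chr16:84624269-84680627. It held 21 regions over 56.4 kb, with heights from 53 to 84 reads and a median of 59, and 1 of its regions was wide (1660 bp). The next, on chr7:251273-278309, held 19 narrow regions of 48 to 76 reads over 27.0 kb. The last of these, on chr1:22538423-22587943, held 18 narrow regions of 50 to 78 reads over 49.5 kb. By the way they were chosen, none of these stretches had a peak in NTKO run 1 or in either TKO library, and all held many regions. Their median heights of 59, 55 and 60 reads were near the 57 reads of all run 2-only regions.

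The runs with the most run 2-only regions were mixed and longer. The first, chr16:83712463-83989599, spanned 277 kb and held 86 run 2-only regions of 51 to 142 reads beside 73 regions of other lists, of which 67 had a peak of TKO run 2. The second, chr1:10625047-10859966, spanned 235 kb and held 72 run 2-only regions, 11 of them wide, beside 57 others. The third, chr16:84008365-84201833, held 63 beside 37 others over 193 kb. The 21 regions of the largest run without other lists lie further along chromosome 16 than both of these mixed runs.

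**Figure D4:**
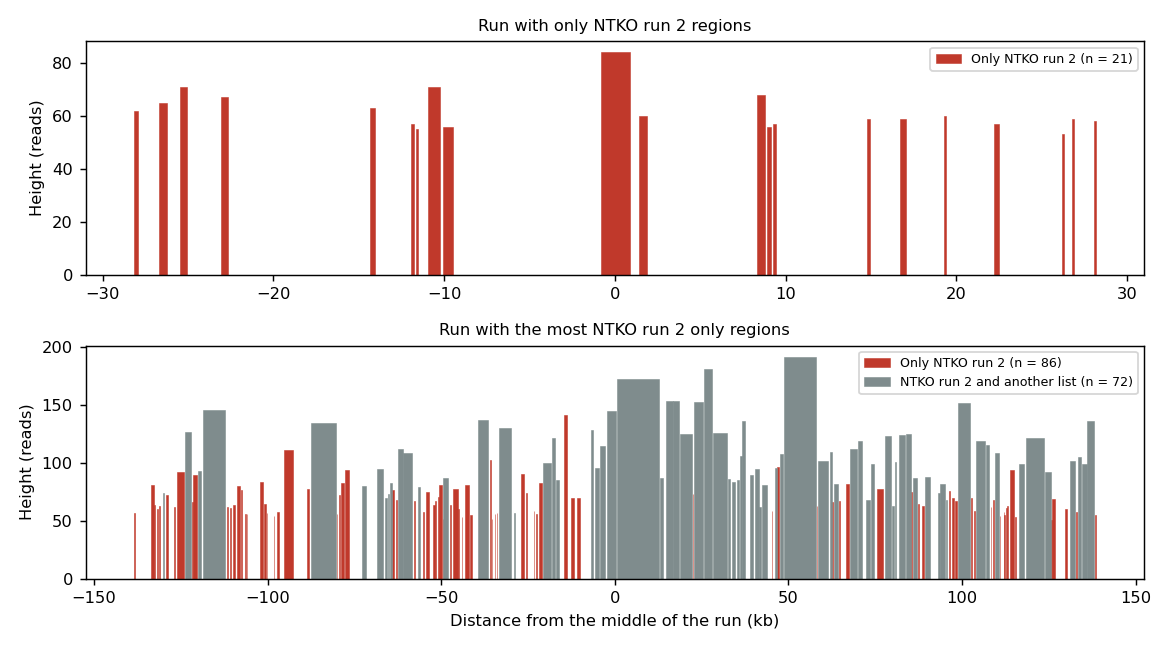
NTKO run 2 peak heights in reads (y axis) along 2 runs, by distance from the middle of the run in kb (x axis), with each bar as wide as its region. In the upper run all 21 regions are run 2-only (red), with heights from 53 to 84 reads, and in the lower run 86 are run 2-only, with heights from 51 to 142 reads, beside regions that other lists contain (gray).

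A few run 2-only regions were high. Of the 126 with 100 reads or more, 39 were wide and 87 narrow. Of the same 126, 35 (27.8%, 20.7 to 36.2) were isolated, a larger share than the 14.7% of all run 2-only regions. High regions of other lists varied too. Regions in all 4 lists (median 163.5 reads) were 69.3% clustered, and those in both NTKO runs and TKO run 2 (median 112 reads) 86.6%. Isolated run 2-only regions of 100 reads or more had a median width of 472 bp, and those near a region of another list 820.5 bp. The highest of all was wide and clustered, on chr12:52887156-52888232, with 171 reads and a −log10 p of 53.4. A region 548 bp away had 44 and 91 reads in the NTKO runs and 80 reads in TKO run 2. The neighbor was thus found in 3 libraries although its NTKO run 2 height was lower. The next wide clustered regions were chr1:154887715-154889282 (145 reads), chr7:150316057-150317158 and chr19:41061604-41062850 (129 reads each).

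The highest narrow regions were of both kinds. Among clustered ones, chr19:52639236-52640121 had 147 reads, chr11:1648243-1648931 had 143, chr16:83836333-83837301 had 142 and chr9:137999149-137999775 had 136. The chromosome 16 region belongs to the run with the most run 2-only regions. Among isolated ones, chr1:109434636-109435076 had 147 reads within 440 bp and the highest −log10 p of all run 2-only regions, 58.8. Its nearest region, 21.8 kb away, had peaks in all 4 lists, with 76 and 143 reads in the NTKO runs and 46 and 179 in the TKO runs. The isolated region chr4:1772-2445 also had 147 reads and lay at the very start of the chromosome sequence, 991 kb from any region of another list. The others were chr20:62387372-62388172 with 139 reads and chr15:19963421-19963926 with 134. The highest region with no other within 1 Mb was chr7:144163837-144164269, with 124 reads over 432 bp and its nearest neighbor 1393 kb away.

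Of the wide isolated regions, the highest were chr3:161425886-161427036 with 109 reads and chr3:187562076-187563092 with 105. The nearest region of another list to the first, 1145 kb away, had 39 and 84 reads in the TKO runs, 52 reads in NTKO run 1 and no peak in NTKO run 2. On chr17:4349359-4350498 the height was 92 reads, with a nearest region 239 kb away. On chr4:152548677-152550771, the widest of the isolated regions at 2094 bp, it was 89 reads.

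Clustering differed between chromosomes. Chromosome 16 had 664 run 2-only regions, of which 96.1% were clustered (94.3 to 97.3), followed by chromosome 21 with 209 of 220 (91.3% to 97.2%) and chromosome 20 with 93.8% of 308. On chromosome 3 only 41.4% of 111 regions were clustered (32.7 to 50.7), on chromosome 18 50.0% of 30 and on chromosome 13 56.1% of 66. Of the NTKO run 2 regions shared with other lists 96.0% were clustered on chromosome 16 and 49.3% on chromosome 3. The highest share of wide run 2-only regions was on chromosome 14, with 26 of 291 (8.93%).

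Leaving Y aside, run 2-only regions were 53.8% of NTKO run 2 regions on chromosome 20 and 80.2% on chromosome 14, the extremes. Their median height was lowest on chromosome 13, 43.5 reads (95% interval 41 to 45), and highest on chromosome 19, 69 reads (69 to 71). The regions shared with other lists had a median of 55 reads on chromosome 13 and 96.5 on chromosome 19, and the TKO run 2 regions 48 and 75 reads, so chromosome 19 was above chromosome 13 in these groups too. Base composition and copy number of the chromosomes were not measured, and their part in these differences was not tested.

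**Figure D5:**
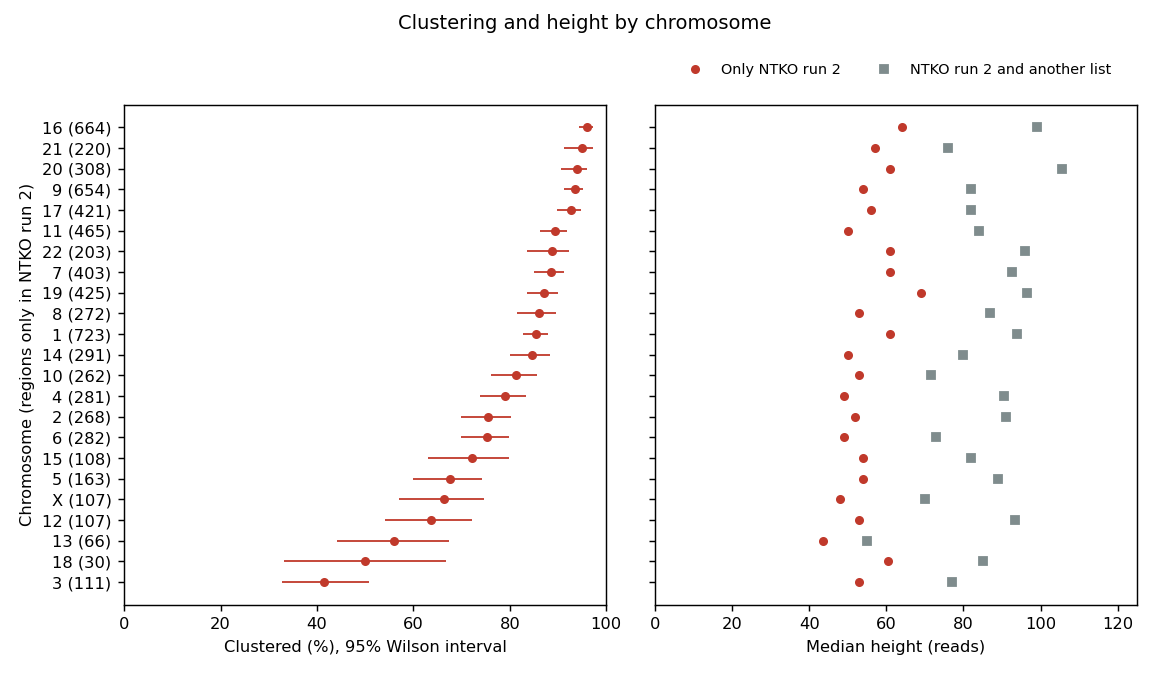
Percent of run 2-only regions that are clustered, with 95% Wilson intervals (left), and median height in reads of run 2-only regions (red) and other NTKO run 2 regions (gray) (right), for each chromosome except Y, with the number of run 2-only regions in parentheses. Clustering goes from 41.4% on chromosome 3 to 96.1% on chromosome 16.

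The groups most like the run 2-only regions were higher and wider where another list held them. The 1584 regions found in NTKO run 2 and TKO run 2 alone had a median NTKO run 2 height of 72 reads and width of 566 bp, with 26.7% wide. The 557 regions found in both NTKO runs alone had 90 reads, 728 bp and 34.1% wide. The 1253 regions found only in TKO run 2 had a median of 58 reads in that library and a width of 225 bp, with 3.19% wide (2.35 to 4.32), and 64.6% of them were clustered (61.9 to 67.2). The median height of regions restricted to 1 library was 57 and 58 reads in the run 2 libraries of NTKO and TKO, and 48 and 42 reads in their run 1 libraries. Scaling between libraries is unknown, so these heights are given side by side only. Neighbors were counted over all lists, most of whose regions come from NTKO run 2, so the clustered shares of both libraries are not on equal terms.

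Some regions stood close to the limits that define the groups. On chr22:36532584-36532721 a region of 49 reads was separated by 1 bp from an NTKO run 1 peak of 43 reads, and on chr10:134804091-134804347 a region of 47 reads by 3 bp from a TKO run 2 peak of 48. On chr17:45634868-45634993 the gap was also 3 bp. In all, 1.56% of the run 2-only regions were within 100 bp of a region of another list and 17.6% within 500 bp. Of the shared NTKO run 2 regions, 3.16% and 45.5% had a further region of another list within these distances. At the width limit, chr1:975468-976468 and chr11:1826026-1827026 were wide with 1000 bp and 87 and 75 reads, while chr14:103911649-103912648 and chr17:74551403-74552401 were just narrow, with 68 and 66 reads.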

How the data were processed

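EZH2 ChIP-seq peaks of 4 libraries were used, and the 4 input libraries were not analysed here on their own. Reads had been mapped to hg18 (BWA and CASAVA 1.8 per the submitters' processing notes), reads at the same position dropped, each library set against its input and peaks called with ChIPseeqer, at 2-fold over input and a −log10 p of 15. A column that the authors deposited is a score, the log10 p, whose sign was reversed here. The deposited signal columns are the mean read level and the height at the summit, and scaling to library size is not given in the sources used here. A deposited percent column places the summit within the peak. Positions are printed as deposited. Library depth is unknown.

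Peaks were merged when overlapping or touching, and gaps count the bases between regions. Shares carry Wilson intervals and medians order-statistic intervals, both at 95%. A difference carries the range between opposite limits of both intervals, which is wider than a 95% interval. No test was run over regions, which are not replicates. The regions, limits and lists were chosen with earlier results of these data known. Named regions are the highest of each class, the widest, the runs with the most regions, those nearest each limit and the highest over 1 Mb from any other, leaving out chromosomes 8 and Y. The merging step and the gap to the nearest region of any kind were checked on 3000 simulated regions, where 4 of 4 quantities came back as made. The simulated regions all held an NTKO run 2 peak and none were made by touching peaks. Gaps to TKO regions, to regions of other lists and to run 2-only regions were not checked. The tools were matplotlib 3.10.9, pandas 2.3.3, numpy 2.4.6, scipy 1.17.1 and Python 3.11.15. Alternatives covered the score threshold, the rule for shared peaks, the number of peaks, the width and distance limits and leaving out each library.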

Additional observations from a re-analysis of the deposited data

How the results depend on the processing

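Of 104 values recomputed over 12 results, 44 moved by less than their error or limit and 60 moved further. Only the wide minus narrow difference in height and the clustered minus isolated difference in the wide share could reverse, and 0 did. The clustered minus isolated difference in height was 0 in the main setting, so it could not count as reversed, and it ranged from -1 to 2 reads. With a −log10 p of at least 20 in all lists there were 4041 run 2-only regions (63.5% of NTKO run 2 regions), 14.8% wide, 79.6% clustered and 45.2% near a TKO region, with a median height of 69 reads, a wide minus narrow difference of 15 reads and a clustered minus isolated difference in the wide share of 12.9 percentage points, and private regions of NTKO run 1, TKO run 1 and TKO run 2 numbered 39, 3 and 791. With that threshold in NTKO run 2 only, the values were 3183 regions (50.0472%), 10.4% wide, 79.2% clustered, 67 reads, 12 reads and 9.36 points. With as many NTKO run 2 peaks as TKO run 2 they were 2425 (44.8%), 12.4%, 79.9%, 71 reads, 10 reads and 9.59 points. Merging peaks within 1 kb gave 3055 regions (58.1%), 62.6% clustered, 32.1% near a TKO region and 59 reads, and 47 and 734 private regions of NTKO run 1 and TKO run 2. An overlap of 50% of both peaks gave 82.6% run 2-only, 14.0% wide, 57.8% near a TKO region, 60 reads, a wide minus narrow difference of 36 reads, a clustered minus isolated difference of 2 reads and 11.9994 points. In that setting regions with a smaller overlap with another list also counted as run 2-only. TKO peaks inside them were left out of the share near a TKO region. The stricter thresholds keep fewer, higher peaks by construction, and for the other shifts the cause was not tested.

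Wide from 500 bp gave 20.5% wide, 15 reads and 15.1 points, and wide from 2000 bp gave 0.643%, 28.5 reads and 0.637 points. The last was the only one of these differences in the wide share whose range between opposite interval limits included 0 (-0.0152 to 0.973). A distance of 5 kb gave 82.7% clustered and 43.7% near a TKO region, and 50 kb gave 90.2% and 72.1%. With only run 2-only regions as neighbors 80.8% were clustered. Leaving out NTKO run 1, TKO run 1 or TKO run 2 in turn gave 65.9% to 81.3% run 2-only, 4.92% to 8.96% wide, medians of 57 to 59 reads, differences of 21 to 28 reads, 3.801 to 8.70 points and 7.93% to 53.5% near a TKO region, the lowest without TKO run 2. Without NTKO run 2 the regions cannot be defined. Requiring a shared base to merge, chosen after seeing the data, gave 6841 regions. No paired analysis was possible because the results come from no test. Depth is unknown and limits every statement on a missing peak.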
